A study of Salmo salar with 57 samples.

Results

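Lysosome genes were followed in the distal intestine of Atlantic salmon, through 39 probes that the study listed as changed by diet and placed in the KEGG lysosome pathway. The 39 probes stand for 34 genes by KEGG orthology, out of 14841 probes on the array, and all 39 were among the 12065 probes bright enough to be tested. Because the listed probes were chosen for their difference from the fish meal diet in these same fish, the differences between diets below describe them and carry no test. Salmon were fed for 4 weeks on a fish meal diet (FM, negative control), a diet with soybean meal (SBM, positive control), or a diet with the same soybean meal and 1 microbial ingredient, which was the yeast Candida utilis (CU), the yeast Saccharomyces cerevisiae (SC), the yeast Kluyveromyces marxianus (KM) or the microalga Chlorella vulgaris (CV). Soybean meal was thus shared by all diets other than FM, and fish meal was lowest in the diets with a microbial ingredient. RNA of 10 fish per diet, and of 7 fish for SBM after the authors left out a tank, was hybridised to single-colour Agilent arrays, 1 array per fish. GEO's labels give a letter per diet and no tank. The diet behind each letter came with the definition of the probe set and not from the labels, and the histology scores alone do not tell CU from CV. According to the paper each diet went to triplicate tanks, so fish of a diet shared tanks. Fish were treated as independent, so p-values measure the spread between fish only. Differences between tanks cannot be told apart from those between diets here.

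Lysosomes are acidic organelles in which proteins, glycans, lipids and nucleic acids taken up by endocytosis or autophagy are broken down. Their soluble hydrolases are made in the endoplasmic reticulum, tagged with mannose-6-phosphate and carried from the Golgi by sorting receptors and adaptor complexes, while a proton pump in the membrane keeps the lumen acidic. In the distal intestine of salmon the enterocytes take up macromolecules from the gut lumen and hold large vacuoles above the nucleus. The roles given below are those known from mammals.

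In fish fed SBM or SC most of the listed hydrolase probes were below FM, while the listed membrane and sorting proteins were divided. DNS2A, PAG15, VPP2, NPC1 and AP1S3 were called above FM in both diets. Calls came from the nested F procedure of limma, with an adjusted p (Benjamini-Hochberg) under 0.05 and a log2 FC against FM of 0.4 or more in size. In SBM 27 of the 39 probes were called below and 7 above FM, while among all 12065 probes 8.62% were called below and 13.7% above. In SC 28 were called below and 6 above (9.28% and 13.2% of all probes), and 25 probes were called below in both groups. KM had 7 probes below and 4 above (1.86% and 9.3%), CU 7 below and 1 above (3.34% and 2.02%), and CV none below and 6 above (0.605% and 9.99%). The probes were listed on these contrasts, so nothing is read from the counts against these shares. All 5 contrasts use the same FM fish. The calls above FM in KM were VPP2, NPC1, AP1S2 and AP1S3, and CV had DNS2A and PAG15 besides these. Calls above FM depended on scaling: with arrays scaled to their 75th percentile SBM had 27 probes below and 4 above FM, SC 30 and 4, KM 12 and 1, CU 7 and 2, and CV 3 and 1, and after each diet was centred on the median of all probes SBM had 28 and 6, SC 29 and 2, KM 14 and 1, CU 5 and 2, and CV 2 and 1.

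The median log2 FC of the 39 probes was −0.58 in SBM, −0.66 in SC, −0.21 in KM, −0.22 in CU and −0.03 in CV. Over all tested probes the median was 0.09, 0.06, 0.14, −0.01 and 0.17 in the same order. No probe was called in opposite directions in different diets. Of the 39, 30 were called below FM in SBM or SC, 8 were called above, and LAMP1 was called in no diet. Relative to the median of all probes, the 30 falling probes had a median of −0.76 in SBM, −0.88 in SC, −0.43 in KM, −0.23 in CU and −0.26 in CV. For the 8 rising probes it was 0.61, 0.44, 0.30, 0.26 and 0.31. The tissue was sampled in bulk, so fewer cells of a type and less RNA per cell cannot be told apart.

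**Figure D1:**
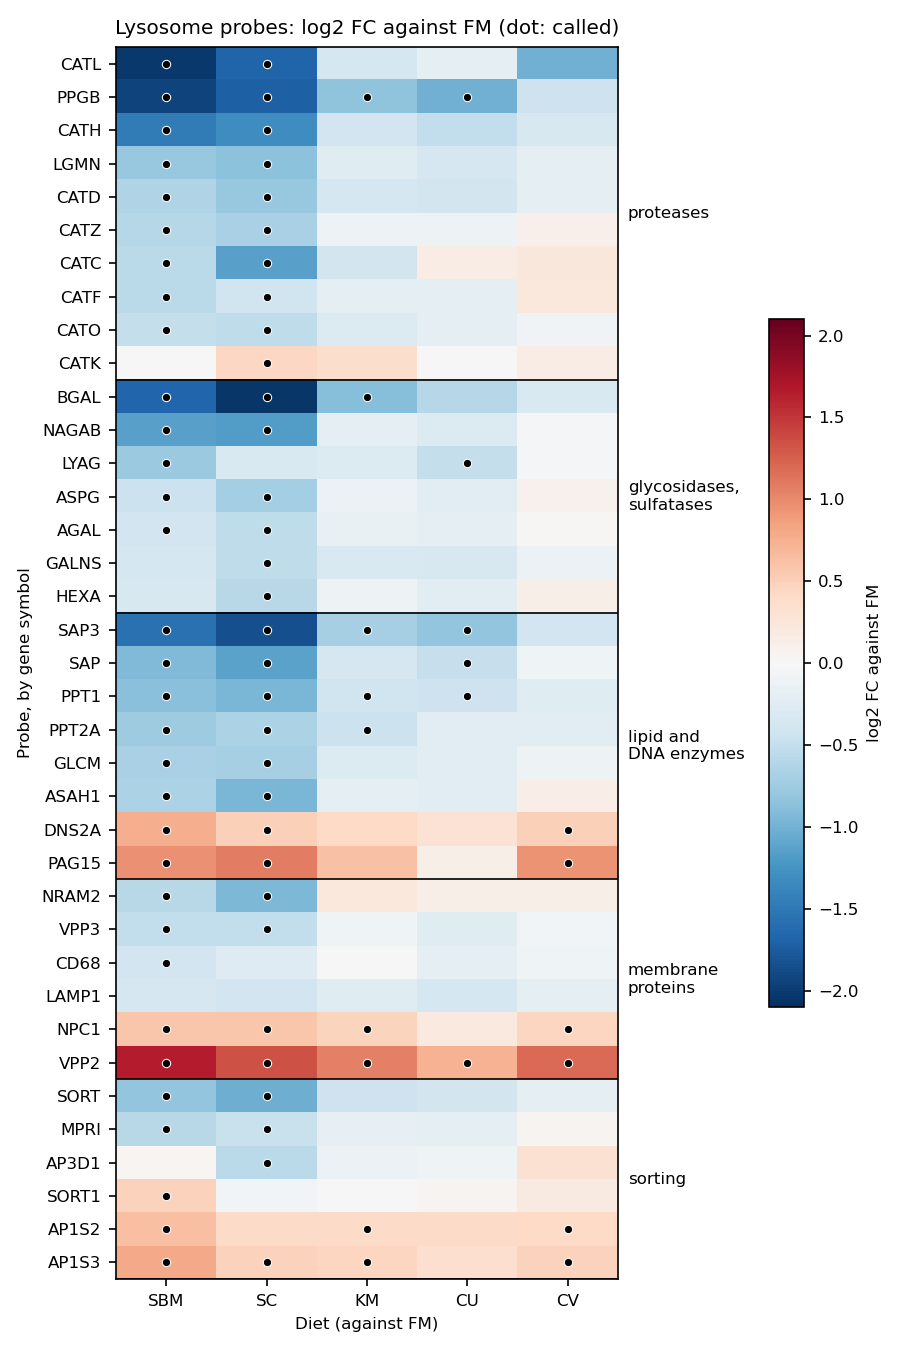
log2 FC against FM of 37 of the 39 lysosome probes (rows, grouped by role) in 5 diets (columns), with a dot where the probe was called. The proteases other than CATK and the glycosidases are blue (below FM) in SBM and SC, down to −2.04 for BGAL in SC, and VPP2 is red (above FM) in all 5 diets.

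The 2 lowest log2 FCs in SBM were those of the proteases CATL and PPGB. Of 10 protease probes 9 were called below FM in SBM and 9 in SC, against 1 in KM, 1 in CU and none in CV. Of all probes 8.62%, 9.28%, 1.86%, 3.34% and 0.605% were called below FM in the same order. The probes of each role were listed on these contrasts, so the counts by role are a description. The median log2 FC of the 10 was −0.62 in SBM and −0.83 in SC, and −0.32, −0.20 and −0.13 in KM, CU and CV.

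PPGB, the lysosomal protective protein or cathepsin A, is a carboxypeptidase that also stabilises beta-galactosidase. PPGB had log2 intensities of 9.05 to 9.89 in FM (median 9.71), 6.56 to 8.36 in SBM (median 7.82) and 7.11 to 8.52 in SC (median 7.90). Beside these, PPGB was 7.49 to 10.002 in KM (median 8.78), 6.64 to 9.75 in CU (median 8.67) and 8.16 to 9.59 in CV (median 9.36). Every SBM and SC fish lay below every FM fish, while 7 CU, 6 KM and 3 CV fish did. The log2 FC was −1.95 in SBM (SE 0.32), −1.71 in SC (SE 0.29), −0.85 in KM, −1.01 in CU and −0.44 in CV. CATH, cathepsin H, is an aminopeptidase of the papain family. By fish, CATH ranged over 15.76 to 16.68 in FM (median 16.20), 14.34 to 15.47 in SBM (median 14.65) and 14.54 to 15.34 in SC (median 14.88). The other diets had 15.09 to 16.41 in KM (median 15.98), 14.85 to 16.29 in CU (median 15.72) and 14.94 to 16.49 in CV (median 15.97). All 17 SBM and SC fish were below the FM range, with 5 CU, 4 KM and 2 CV fish. Its log2 FC was −1.47 in SBM (SE 0.19), −1.31 in SC (SE 0.18) and between −0.52 and −0.33 in the other diets.

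CATL, cathepsin L, is an endopeptidase and had the widest spread of the 39 probes. Levels of CATL were 4.98 to 9.07 in FM (median 6.20), 3.71 to 5.45 in SBM (median 4.58) and 3.63 to 6.96 in SC (median 4.58) on the log2 scale. In the other fish CATL was 4.44 to 8.15 in KM (median 6.47), 4.80 to 8.53 in CU (median 6.04) and 4.73 to 7.06 in CV (median 5.45). The groups overlapped, with 6 of 7 SBM and 5 of 10 SC fish below the lowest FM fish, and 1 SBM value was imputed. CATL had a log2 FC of −2.03 in SBM (SE 0.53) and −1.69 in SC (SE 0.48), and −1.01 in CV (SE 0.48) was not called. CATC, dipeptidyl peptidase 1, activates serine proteases of leukocytes. The log2 intensity of CATC was 7.99 to 9.95 in FM (median 8.93), 7.99 to 8.93 in SBM (median 8.32) and 7.07 to 8.74 in SC (median 7.73). CATC was 8.06 to 9.36 in KM (median 8.58), 8.42 to 9.86 in CU (median 9.23) and 8.501 to 10.13 in CV (median 9.25). No SBM fish left the FM range, while 7 SC fish were below it. The log2 FC of CATC was −0.57 in SBM (SE 0.25), −1.15 in SC (SE 0.22), and 0.15 and 0.24 in CU and CV, and its SBM call was lost when p-values were adjusted per contrast.

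The other proteases called below FM had smaller differences. LGMN, the asparaginyl endopeptidase legumain, had a log2 FC of −0.80 in SBM and −0.86 in SC, and CATD, the main aspartic protease, −0.64 and −0.79. All 17 fish of these groups were below the FM range for both probes. CATZ, CATF and CATO had log2 FCs between −0.67 and −0.43 in SBM and SC. CATK, a cysteine protease known for degrading collagen, was the exception among the proteases. CATK had log2 intensities of 11.85 to 12.48 in FM (median 12.08), 11.95 to 12.60 in SBM (median 12.08) and 12.13 to 12.82 in SC (median 12.64). It was 12.28 to 12.93 in KM (median 12.44), 11.88 to 12.48 in CU (median 12.07) and 11.86 to 12.65 in CV (median 12.32). Of the SC fish 7 were above the FM range, while SBM and FM overlapped almost wholly, and 6 of its 57 values were imputed. Its log2 FC was −0.01 in SBM (SE 0.11) and 0.43 in SC (SE 0.10), a call that was lost with dim spots kept and after each diet was centred on the median of all probes.

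The listed enzymes that take sugars or sulfate from glycans were called in 1 direction only. Of 9 glycosidase and sulfatase probes, 7 were called below FM in SBM, 8 in SC, 3 in KM, 3 in CU and none in CV, and none was called above. The shares of all probes below FM were 8.62%, 9.28%, 1.86%, 3.34% and 0.605% in the same order. These probes too were listed on the same contrasts, and nothing is read from their counts. BGAL, beta-galactosidase, removes terminal galactose from glycolipids and glycoproteins. By fish, BGAL ranged over 10.84 to 12.13 in FM (median 11.36), 9.02 to 10.33 in SBM (median 9.74) and 8.71 to 10.12 in SC (median 9.52). Beside these, BGAL was 9.77 to 11.55 in KM (median 10.57), 9.59 to 12.16 in CU (median 10.87) and 9.62 to 12.47 in CV (median 11.19). None of the SBM and SC fish reached the FM range, and 7 KM, 5 CU and 2 CV fish were below it. The level in FM was 3.17-fold that in SBM and 4.12-fold that in SC, as log2 FCs of −1.67 (SE 0.29) and −2.04 (SE 0.26).

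NAGAB is alpha-N-acetylgalactosaminidase, and the listed probe was called in SBM and SC. Levels of NAGAB were 16.97 to 17.70 in FM (median 17.48), 15.79 to 16.91 in SBM (median 16.30) and 15.54 to 16.81 in SC (median 16.17) on the log2 scale. The other diets had 16.51 to 17.67 in KM (median 17.33), 15.999 to 17.70 in CU (median 17.17) and 16.09 to 17.67 in CV (median 17.57). All SBM and SC fish were below the FM range, with 3 KM, 3 CU and 1 CV fish. NAGAB had a log2 FC of −1.14 in SBM (SE 0.21) and −1.17 in SC (SE 0.19), and −0.20, −0.29 and −0.02 in KM, CU and CV. LYAG, the acid alpha-glucosidase of glycogen, was called in SBM (−0.78) and CU (−0.50) but not in SC (−0.33). Of its 10 CU values 2 were imputed. HEXA had −0.34 in SBM and −0.59 in SC and was called in SC alone. ASPG, AGAL and GALNS had log2 FCs between −0.71 and −0.37 in SBM and SC.

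**Figure D2:**
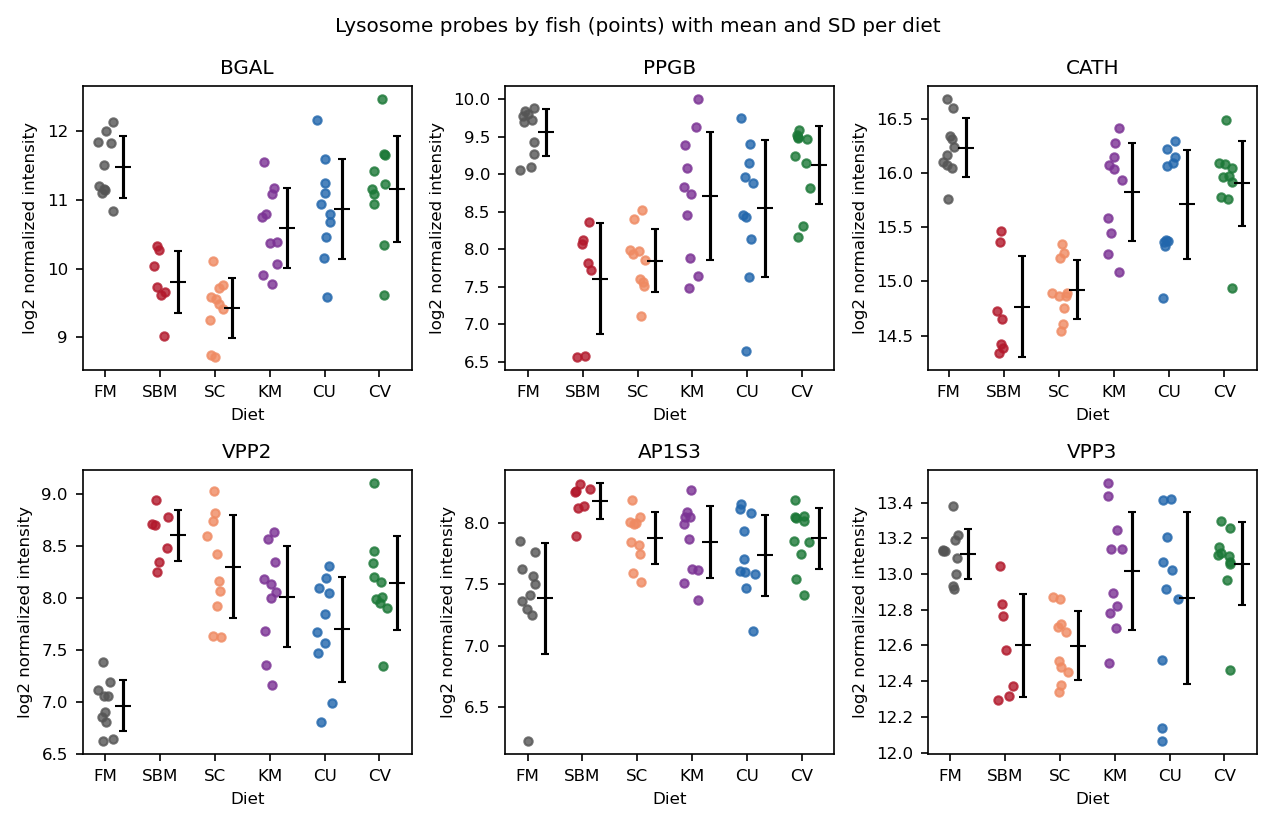
log2 normalized intensity (y axis) of 6 lysosome probes in each fish, by diet (x axis), with the mean and SD beside the points. BGAL, PPGB and CATH lie below the FM range in all SBM and SC fish, VPP2 lies above it, and VPP3, another isoform of the same pump subunit as VPP2, is below it in all 10 SC fish.

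Among enzymes and cofactors of lipid and DNA breakdown both directions occurred. Of 8 probes 6 were called below and 2 above FM in both SBM and SC. Among all probes 8.62% were called below and 13.7% above in SBM, and 9.28% and 13.2% in SC. The listing used these contrasts, so the counts are a description. SAP3, the ganglioside GM2 activator, presents the lipid to its hydrolase. The log2 intensity of SAP3 was 9.26 to 10.71 in FM (median 10.16), 7.95 to 8.98 in SBM (median 8.28) and 7.79 to 8.54 in SC (median 8.12). In the other fish SAP3 was 8.73 to 9.93 in KM (median 9.24), 8.34 to 10.16 in CU (median 9.07) and 8.31 to 10.38 in CV (median 9.73). All SBM and SC fish were below FM, with 5 KM, 6 CU and 2 CV fish, and 1 SC value was imputed. The log2 FC of SAP3 was −1.57 in SBM (SE 0.24), −1.85 in SC (SE 0.22), −0.70 in KM and −0.82 in CU. SAP, prosaposin, is cut into activators of sphingolipid hydrolases. SAP had log2 intensities of 8.20 to 9.23 in FM (median 8.57), 7.26 to 8.05 in SBM (median 7.71) and 6.95 to 7.80 in SC (median 7.55). SAP was 7.76 to 8.88 in KM (median 8.20), 7.45 to 8.92 in CU (median 8.05) and 7.78 to 9.06 in CV (median 8.62). The 17 SBM and SC fish again lay below FM, as did 7 CU, 5 KM and 2 CV fish. Its log2 FC was −0.93 in SBM (SE 0.18) and −1.13 in SC (SE 0.16). The call of SAP in CU (−0.49) was lost under 6 of the alternatives that use both scan days.

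PPT1 and PPT2A, thioesterases that remove fatty acids from proteins and other thioesters, and GLCM, glucosylceramidase, had log2 FCs between −0.95 and −0.66 in SBM and SC. PPT1 was also called in KM (−0.42) and CU (−0.43), with 8 of its 57 values imputed. PPT2A was called in KM as well (−0.45), where 8 fish were below the FM range. ASAH1, acid ceramidase, splits ceramide. By fish, ASAH1 ranged over 10.94 to 11.76 in FM (median 11.22), 10.21 to 11.24 in SBM (median 10.60) and 9.78 to 10.72 in SC (median 10.38). It was 10.25 to 11.76 in KM (median 10.93), 10.03 to 11.86 in CU (median 11.19) and 10.52 to 12.21 in CV (median 11.58). All 10 SC and 6 of 7 SBM fish lay below the FM range, and its log2 FC was −0.67 in SBM (SE 0.23) and −0.96 in SC (SE 0.21).

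Within this group DNS2A and PAG15 were called above FM. DNS2A, the acid deoxyribonuclease 2 alpha, digests DNA of engulfed cells. Levels of DNS2A were 12.33 to 13.72 in FM (median 13.44), 13.81 to 14.44 in SBM (median 14.08) and 13.39 to 14.17 in SC (median 13.79) on the log2 scale. Beside these, DNS2A was 13.03 to 14.58 in KM (median 13.63), 12.71 to 13.94 in CU (median 13.66) and 13.40 to 14.19 in CV (median 13.76). All 7 SBM fish exceeded the highest FM fish, as did 5 fish of each of SC, CU and CV. The log2 FC was 0.76 in SBM (SE 0.17), 0.50 in SC (SE 0.16), 0.42 in KM, 0.30 in CU and 0.50 in CV. PAG15 is a phospholipase A2 of the lysosome. The log2 intensity of PAG15 was 3.95 to 7.14 in FM (median 6.35), 6.17 to 8.01 in SBM (median 7.03) and 6.38 to 7.96 in SC (median 7.08). The other diets had 5.53 to 7.69 in KM (median 6.60), 5.10 to 6.82 in CU (median 6.30) and 6.43 to 7.69 in CV (median 6.91). The groups overlapped, with 3 SBM, 5 SC and 4 CV fish above the FM range. PAG15 had a log2 FC of 0.96 in SBM (SE 0.32), 1.08 in SC (SE 0.29) and 0.94 in CV (SE 0.29), against 0.12 in CU. The calls of DNS2A in SC and CV and of PAG15 in SBM and CV were lost with arrays scaled to their 75th percentile.

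The 6 membrane proteins were divided as well. VPP2 and VPP3 are isoforms a2 and a3 of a membrane subunit of the proton pump (V-ATPase), and they changed in opposite directions. Of the 39 probes VPP2 alone was called in all 5 diets. VPP2 had log2 intensities of 6.62 to 7.39 in FM (median 6.98), 8.25 to 8.94 in SBM (median 8.70) and 7.62 to 9.03 in SC (median 8.30). In the other fish VPP2 was 7.16 to 8.64 in KM (median 8.10), 6.81 to 8.31 in CU (median 7.76) and 7.35 to 9.11 in CV (median 8.08). All SBM and SC fish were above every FM fish, with 9 CV, 8 KM and 8 CU fish. Its log2 FC was 1.64 in SBM (SE 0.21), 1.34 in SC (SE 0.19), 1.05 in KM, 0.74 in CU and 1.18 in CV. These calls held under every alternative, except in CU with the arrays of scan day 1 alone. By fish, VPP3 ranged over 12.92 to 13.38 in FM (median 13.13), 12.30 to 13.04 in SBM (median 12.58) and 12.34 to 12.87 in SC (median 12.59). VPP3 was 12.50 to 13.51 in KM (median 13.02), 12.06 to 13.42 in CU (median 12.97) and 12.46 to 13.30 in CV (median 13.10). VPP3 was below the FM range in all 10 SC and 6 of 7 SBM fish, with a log2 FC of −0.51 in SBM (SE 0.15) and −0.51 in SC (SE 0.13).

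NRAM2 moves iron and other divalent metals across membranes. Levels of NRAM2 were 12.37 to 13.47 in FM (median 12.79), 11.55 to 12.87 in SBM (median 12.33) and 10.42 to 12.69 in SC (median 12.05) on the log2 scale. It was 12.90 to 13.37 in KM (median 13.11), 12.04 to 13.60 in CU (median 13.04) and 12.58 to 13.53 in CV (median 12.94). In SC 7 fish and in SBM 5 fish were below the FM range, and no KM fish left it. NRAM2 had a log2 FC of −0.58 in SBM (SE 0.21) and −0.94 in SC (SE 0.19), and between 0.12 and 0.22 in KM, CU and CV. NPC1 exports cholesterol from the lysosome. The log2 intensity of NPC1 was 4.82 to 6.28 in FM (median 5.86), 6.08 to 6.91 in SBM (median 6.29) and 5.79 to 6.98 in SC (median 6.44). Beside these, NPC1 was 5.82 to 6.64 in KM (median 6.39), 5.42 to 6.60 in CU (median 5.96) and 5.87 to 6.62 in CV (median 6.28). Its groups overlapped, with 4 SBM, 7 SC, 6 KM and 5 CV fish above the FM range. The log2 FC of NPC1 was 0.59 in SBM (SE 0.17), 0.58 in SC (SE 0.16), 0.46 in KM and 0.46 in CV, and all 4 calls were lost after each diet was centred on the median of all probes.

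CD68, the macrophage membrane protein macrosialin, was called in SBM alone (−0.41). LAMP1, a major glycoprotein of the lysosomal membrane, lay just outside the limit with −0.35 in SBM and −0.37 in CU. Its value in SC is −0.40 only after rounding, and it had −0.26 in KM and −0.19 in CV. All 10 SC fish and 6 of 7 SBM fish were nevertheless below the FM range, with 9 CU, 7 KM and 7 CV fish. Just inside the limit were AGAL in SBM (−0.41) and AP1S2 in KM (0.41) and CV (0.42). Just outside it was AP1S2 in SC (0.396) and CU (0.399), so these AP1S2 values lie close together on both sides of the limit.

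Among the sorting proteins the 2 sortilin probes were called in opposite directions in SBM, and only 1 of them was called in SC. Sortilin carries several hydrolases and activators from the Golgi to the endosome. SORT had log2 intensities of 6.22 to 8.90 in FM (median 7.69), 6.47 to 7.34 in SBM (median 6.96) and 5.72 to 7.82 in SC (median 6.62). The other diets had 6.48 to 8.20 in KM (median 7.33), 6.73 to 8.06 in CU (median 7.24) and 6.89 to 8.51 in CV (median 7.35). The SORT probe overlapped FM in every group, with a single SC fish below the FM range. Its log2 FC was −0.83 in SBM (SE 0.28) and −1.03 in SC (SE 0.25). By fish, SORT1 ranged over 6.31 to 7.09 in FM (median 6.75), 6.999 to 7.80 in SBM (median 7.14) and 6.05 to 7.28 in SC (median 6.66). In the other fish SORT1 was 6.37 to 7.15 in KM (median 6.78), 6.36 to 7.33 in CU (median 6.83) and 6.71 to 7.29 in CV (median 6.96). The SORT1 probe was above the FM range in 5 of 7 SBM fish, with a log2 FC of 0.49 in SBM (SE 0.13) and −0.05 in SC (SE 0.12). The SBM call of SORT was lost with the slide as a block, and that of SORT1 with arrays scaled to their 75th percentile. MPRI is the large mannose-6-phosphate receptor. Levels of MPRI were 10.46 to 11.26 in FM (median 10.99), 10.08 to 10.62 in SBM (median 10.37) and 10.06 to 10.79 in SC (median 10.56) on the log2 scale. MPRI was 10.42 to 11.05 in KM (median 10.77), 10.34 to 11.09 in CU (median 10.78) and 10.68 to 11.24 in CV (median 10.999). Of the SBM fish 5 and of the SC fish 4 were below the FM range, and the log2 FC was −0.58 in SBM (SE 0.11) and −0.47 in SC (SE 0.10).

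AP1S2 and AP1S3 are small subunits of the AP-1 adaptor, which packs cargo into coated vesicles at the Golgi. The log2 intensity of AP1S2 was 9.45 to 9.92 in FM (median 9.79), 10.20 to 10.57 in SBM (median 10.45) and 9.71 to 10.52 in SC (median 10.17). It was 9.71 to 10.74 in KM (median 10.20), 9.83 to 10.67 in CU (median 10.12) and 9.63 to 10.64 in CV (median 10.21). For AP1S2 all 7 SBM fish, 9 KM, 9 CU, 8 SC and 8 CV fish exceeded every FM fish. AP1S3 had log2 intensities of 6.22 to 7.85 in FM (median 7.46), 7.89 to 8.32 in SBM (median 8.26) and 7.52 to 8.19 in SC (median 7.92). Beside these, AP1S3 was 7.37 to 8.27 in KM (median 7.93), 7.12 to 8.16 in CU (median 7.66) and 7.41 to 8.19 in CV (median 7.93). AP1S3 likewise had all 7 SBM fish above the FM range, and 1 FM fish at 6.22 was far below the other 9. The log2 FC in SBM was 0.63 (SE 0.12) for AP1S2 and 0.79 (SE 0.15) for AP1S3, and in the other diets both had values between 0.35 and 0.49. The KM and CV calls of both were lost with 75th percentile scaling, with dim spots kept and in 4 other alternatives that use all arrays. AP3D1, a subunit of the AP-3 adaptor, had −0.57 in SC (SE 0.16) and 0.04 in SBM (SE 0.18).

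SBM and SC were also set against each other, and 4 of the 39 probes were called. The median difference SC minus SBM over the 39 probes was −0.07 on the log2 scale. AP3D1 (−0.61), CATC (−0.57) and SORT1 (−0.55) were called lower and CATK (0.44) higher in SC than in SBM, where 2.01% and 2.59% of all probes were called lower and higher. In KM 17 of the 39 probes were called above SBM and 1 below (8.92% and 2.29% of all probes), the latter being SORT1 (−0.48). CU had 17 above and 3 below (3.26% and 5.35%), and CV 26 above and none below (9.56% and 2.81%). The SBM fish are shared by these comparisons and entered the choice of the probes, so the counts are a description. The 3 probes called below SBM in CU were PAG15 (−0.83), VPP2 (−0.90) and SORT1 (−0.43).

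Counted per fish, between 17 and 25 of the 30 falling probes were below all FM fish in an SBM fish (median 20), and between 14 and 27 in an SC fish (median 21.5). The counts were 1 to 20 in KM (median 11), 1 to 22 in CU (median 9) and 0 to 15 in CV (median 1.5). Of the 8 rising probes a fish had a median of 6 above all FM fish in SBM, 5 in SC, 4.5 in KM, 3 in CU and 4 in CV. KM and CU fish ranged from 1 of the 30 falling probes to counts inside the range of SBM fish. The falling and rising probes were defined by their calls in SBM or SC, so the counts in those fish follow in part from that choice. The same count over all tested probes was not made, and nothing is read from these counts about the lysosome probes in particular.

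Spread among fish was near that of the array as a whole. For each gene the paper kept the changed probe that varied most, so spread also entered the choice of the listed probes. The pooled SD within diets had a median of 0.33 over the 39 probes and 0.33 over all probes. CATL (1.098), PAG15 (0.66) and PPGB (0.66) had the largest pooled SDs. By diet, the median SD of the 39 probes was 0.29 in FM, 0.27 in SBM, 0.27 in SC, 0.33 in KM, 0.39 in CU and 0.33 in CV. Over all probes it was 0.34, 0.24, 0.28, 0.30, 0.35 and 0.29. After removal of diet means, the median correlation over the 57 arrays was 0.38 between pairs of falling probes, 0.29 between pairs of rising probes and 0.08 between a falling and a rising probe, against 0.16 for all pairs of probes. The closest pair was ASAH1 with BGAL (0.90). All pairs share arrays, tissue pieces and normalization.

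Other probes with the same gene names were available for several genes. From a list of lysosome genes 40 were matched to 58 probes, but names are given only for probes that the study listed as changed, and the other 76 genes of the list had no named probe. Of the 58, 41 were called below and 8 above FM in SBM, 43 and 6 in SC, 13 and 6 in KM, 14 and 1 in CU, and none and 8 in CV. Of the 19 probes that are not among the 39, 14 were called below FM in SBM and 15 in SC. Over all probes the shares below and above FM were 8.62% and 13.7% in SBM and 9.28% and 13.2% in SC. They were 1.86% and 9.3% in KM, 3.34% and 2.02% in CU, and 0.605% and 9.99% in CV. The 58 probes have names because they were listed as changed, so nothing is read from their counts. The 2 further BGAL probes had log2 FCs of −1.82 and −1.84 in SBM and −1.93 and −1.97 in SC, and the 2 further PPGB probes −1.48 and −1.76 in SBM and −1.49 and −1.61 in SC. The further PPT1 probe had −0.89 in SBM and −0.94 in SC, near the values of its partner (−0.88 and −0.95).

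Some same-named probes disagreed. The paper kept for the pathway the changed probe of a gene that varied most, so a listed probe can exceed its partners through that choice. Of the 3 further SAP probes 2 fell with the first (−0.94 and −0.90 in SBM) and the third, Ssa_S35661650, was 0.99 above FM in SBM and 0.57 in SC. The second cathepsin L probe, Ssa_TC88604, had 0.32 in SBM and −0.04 in SC where CATL fell. The 3 further NAGAB probes had −0.55, −0.62 and −0.42 in SBM where the listed probe had −1.14, and −0.46, −0.38 and −0.41 in KM, where the first and the third of them were called and the listed probe (−0.20) was not. Their correlation with the listed probe within diets was 0.33, 0.44 and 0.22 over the 57 arrays. The second CATC probe had −0.74 in SBM and −0.80 in SC, so that the lower level of CATC in SC than in SBM was seen in the listed probe and not in this one. The second AP3D1 probe had −0.54 in SBM and −0.25 in SC and was called in neither. The lower level of AP3D1 in SC than in SBM was thus not seen in this probe. Its correlation with the listed AP3D1 probe within diets was −0.32. Whether such probes measure duplicate genes was not tested, since no probe sequence was used here.

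**Figure D3:**
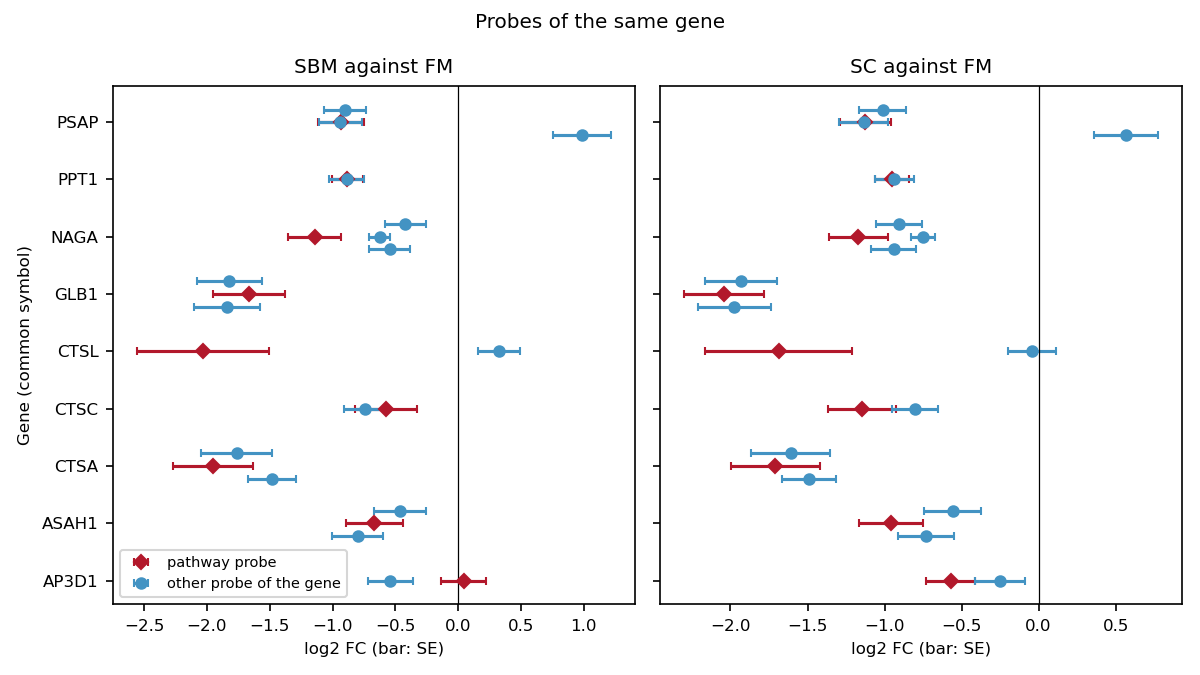
log2 FC against FM in SBM (left) and SC (right) for 9 genes with more than 1 named probe (rows, by common symbol), with the SE as a bar. The probes of GLB1 (BGAL), CTSA (PPGB) and PPT1 lie close together, while 1 PSAP (SAP) probe and the second CTSL (CATL) probe lie apart from the others of their gene.

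Markers of other cell types were also matched by name. Names are given only for probes that the study listed as changed. Calls among the matched markers thus follow in part from that choice, and nothing is read from their counts. Of 10 enterocyte markers 6 had a named probe, and of their 8 probes 6 were called below FM in SBM, 8 in SC, 1 in CU and none in KM and CV. The shares of all probes called below FM were 8.62% in SBM, 9.28% in SC, 3.34% in CU, 1.86% in KM and 0.605% in CV. The summed level of a list is the log2 of the added intensities of its probes, so the brightest probes weigh most. For the 8 enterocyte probes it was 16.98 to 17.82 in FM, 14.79 to 17.30 in SBM and 14.25 to 16.61 in SC. It ranged from 15.92 to 18.66 in KM, from 15.88 to 18.10 in CU and from 15.79 to 17.93 in CV. Of 5 smooth muscle markers 2 had named probes, and their 3 probes were called above FM in SC in 3 cases, in KM in 2 and in CV in 1. Of all probes 13.2% were called above FM in SC, 9.3% in KM and 9.99% in CV. The summed level of the 3 smooth muscle probes was 11.66 to 13.59 in FM, 11.73 to 13.34 in SBM and 12.82 to 13.99 in SC. It was 12.65 to 13.89 in KM, 11.56 to 13.55 in CU and 12.25 to 14.29 in CV. Of 13 leukocyte markers only HG2A (CD74) and MPEG1 had named probes, with log2 FCs of −0.41 and −0.49 in SBM and −0.23 and −0.68 in SC. Their summed level was 14.28 to 14.86 in FM, 13.60 to 14.47 in SBM, 13.85 to 14.66 in SC, 13.99 to 15.07 in KM, 13.84 to 14.82 in CU and 13.96 to 14.67 in CV. No pancreas or red cell marker had a named probe, and markers without one were not looked up. The part of these cell types in the changes of the lysosome probes was not tested.

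The scanner files show the slide (9 slides with 5 to 7 arrays each) and the scan day of each array. The slide was used as a block in an alternative. Scan day had 26 arrays on day 1 and 31 on day 2, with every diet on both. With the arrays of each day alone, the 30 falling probes had a median log2 FC of −0.76 and −0.72 in SBM, −0.74 and −0.82 in SC, −0.28 and −0.32 in KM, and −0.38 and −0.26 in CU. In CV it was −0.16 on day 1 and 0.03 on day 2, where all probes had a median of 0.25. The 8 rising probes had medians of 0.48 and 0.77 in SBM, 0.37 and 0.54 in SC, 0.49 and 0.40 in KM, 0.09 and 0.43 in CU, and 0.28 and 0.48 in CV.

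The relation between level and histology among fish of the same diet was not a criterion for listing the probes. For each gene, however, the paper kept the changed probe that varied most, and that variance includes the spread within diets. Each fish has scores for lamina propria, epithelium, atrophy and oedema, which were summed. All FM fish had a sum of 0, SBM fish 6 to 8, SC fish 1.5 to 8, KM fish 3 to 7, CU fish 0 to 6 with 6 of 10 above 0, and CV fish 0 to 7 with 2 above 0. A common slope over all diets was fitted with limma after removal of diet means. None of the 12065 probes passed 0.05 after Benjamini-Hochberg adjustment, so 0% of all probes and 0 of 39 lysosome probes were called. Without adjustment, 18 of the 39 probes had p under 0.05, all with a slope below 0, where 4.23% of all probes had such a slope below 0 and 13.2% above 0. The lowest adjusted p in limma was 0.077, shared by LGMN (slope −0.08, SE 0.02 per score unit), CATH (−0.10, SE 0.03) and SAP3 (−0.12, SE 0.03). The count of 0 depended on the diets and the score: it was 13 without the KM diet and 6 with the lamina propria score alone. The shares of all probes called in these settings are not given. Nothing is thus read from the 13 and 6 about the lysosome probes in particular.

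A separate slope for each diet, fitted after the common slope had been seen, gave adjusted calls among the 39 probes in CU alone. In CU 9 of the 39 probes passed the adjusted threshold in limma, all below 0, where 3.08% of all probes passed and 0.547% passed below 0. Among them were the proteases PPGB, CATZ, CATH, LGMN and CATD, the glycosidase NAGAB and the pump subunit VPP3. VPP3 and LGMN had the lowest adjusted p in limma (0.023 each), with slopes of −0.16 (SE 0.04) and −0.13 (SE 0.03), and the slope of PPGB was −0.31 (SE 0.09, adjusted p = 0.045). Without adjustment 21 of the 39 had p under 0.05 in CU, against 21% of all probes. In SBM, SC and KM none of the 39 and 0% of all probes passed the adjusted threshold, and 2, 0 and 0 of the 39 had an unadjusted p under 0.05 (2.82%, 2.38% and 2.11% of all probes). In CV none of the 39 passed (0.0497% of all probes), and 11 had an unadjusted p under 0.05 (4.95%). Only 2 CV fish had a sum above 0, and fish 7 had a sum of 7, so the CV slope rests mainly on that fish. The SBM slope likewise rests on fish 5, with a sum of 6 where every other SBM fish had 8. The slopes of SC, KM, CU and CV were compared in the same limma model, and their difference passed for none of the 39 probes and 0.00829% of all probes (9 of the 39 at unadjusted p under 0.05, with 6.24% of all probes). A difference of CU from the other diets is thus not shown.

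Of the 9 probes, CATH, NAGAB and VPP3 are given by fish. In the CU fish with sums of 4, 4 and 6 the CATH level was 15.38, 15.38 and 14.85, against 16.09 to 16.29 in the 4 fish with a sum of 0. NAGAB was 17.01, 16.83 and 15.999 in the same 3 fish and 17.34 to 17.70 in the 4. The VPP3 level was 12.86, 12.06 and 12.14, against 12.92 to 13.42. These groups of 3 and 4 fish did not overlap, but the fish between them were not in order of their sums. The fish with a sum of 0.5 was at 15.36 for CATH, 16.98 for NAGAB and 12.52 for VPP3. With a sum of 1 the levels were 16.06, 17.62 and 13.42 in the same order, and with a sum of 2 they were 15.33, 16.84 and 13.07. The 3 probes were taken from those called for this slope, so the separation follows in part from that choice and is a description. The 9 calls depended on single fish. Without CU fish 2, 3 or 4 no call remained, without fish 9 there were 3 and without fish 10 there were 5, and with the slide as a block or the lamina propria score alone there were none.

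**Figure D4:**
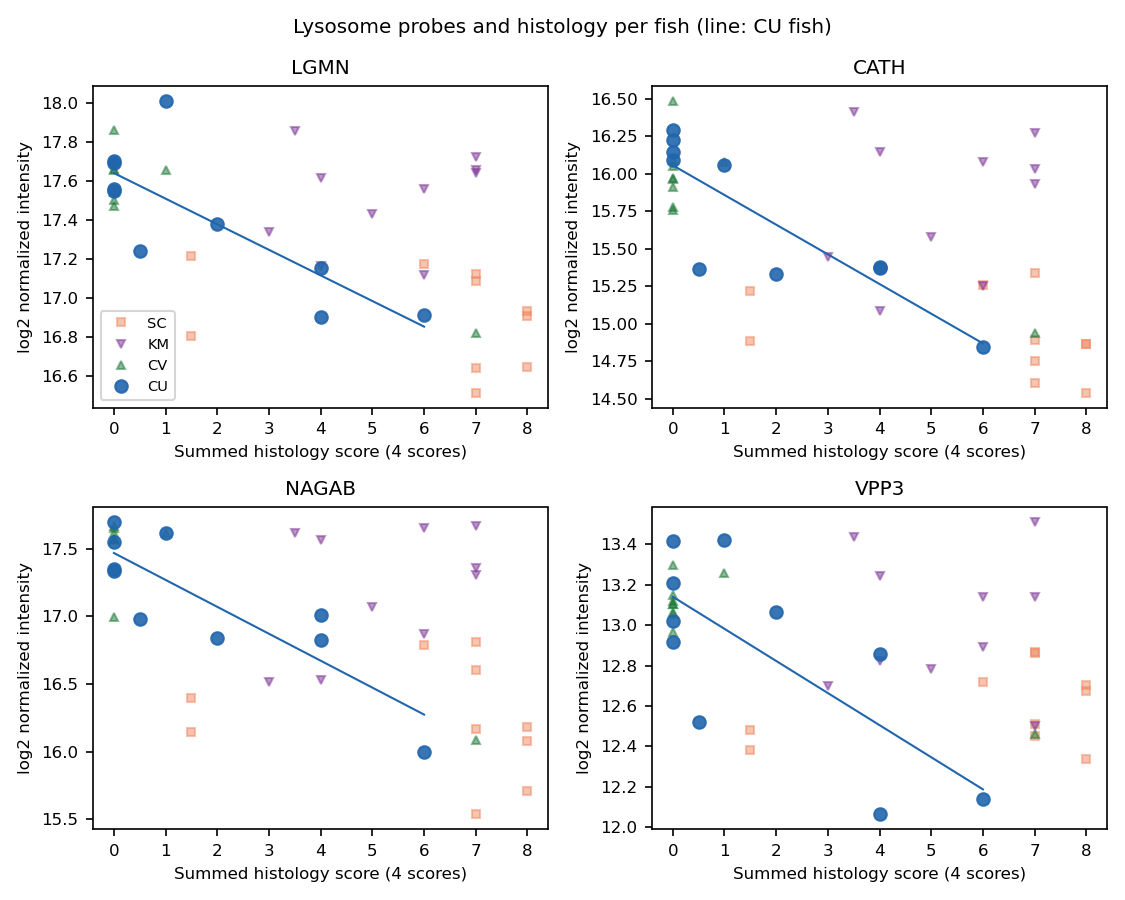
log2 normalized intensity (y axis) of 4 lysosome probes against the summed histology score of each fish (x axis) in SC, KM, CV and CU, with a least-squares line through the CU fish. The 4 probes are among those called for the slope in CU. CU fish with a sum of 4 or 6 lie below those with a sum of 0. SC fish with a sum of 1.5 lie among the other SC fish, except in LGMN. There SC fish 1 (17.22) is the highest SC fish, with the others at 16.51 to 17.17.

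Fish whose score stood apart from their diet were also described singly. CV fish 7 was the only CV fish with a sum above 1 (a sum of 7), and its level was the lowest of the 10 CV fish for 22 of the 30 falling probes. BGAL was 9.62 in this fish and between 10.34 and 12.47 in the other 9, and SAP3 was 8.31 against 9.21 to 10.38. For VPP2 it was at 8.46, within the range of the other 9 (7.35 to 9.11). CU fish 4, with the highest sum of CU, was lowest for 18 of the 30. The 2 CU fish with a sum of 4 differed from each other. CU fish 2 was lowest for 6 of the 30 and had 22 below all FM fish. CU fish 1 was lowest for 2 and had 12 below all FM fish, against 13 in each of the CU fish with sums of 0.5 and 2. SC fish 1 and 10, each with a sum of 1.5 where the other 8 had 6 to 8, had 25 and 19 of the 30 probes below all FM fish, inside the range of the other SC fish (14 to 27). How often these fish were lowest over all tested probes was not counted. The 30 falling probes also correlated with each other within diets (median 0.38). Nothing is thus read from these counts about the lysosome probes in particular.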

How the data were processed

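The authors deposited spot intensities from Agilent's Feature Extraction software, version 10.7.1.1, of 57 arrays, background-subtracted by the scanner software, and a table of their log2 normalized values, used here as an alternative. After the study's methods, intensities with flags for not positive, dim or uneven spots (1264 to 3320 per array) were set to missing, quantile normalized and log2 transformed. Control spots (536) and probes missing on over 15% of arrays were dropped, and 4245 values (0.617%) were imputed from 10 neighbouring probes. One linear model over 6 diets was fitted with limma 3.58.1 in R 4.3.3 and was tested on simulated data. Tables were summarised with Python 3.11.15 and pandas 2.3.3. The labels give diets as letters, and the diet behind each letter was taken from the definition of the probe set. SBM is the letter with 7 fish and FM the one with all scores at 0, and the scores alone do not tell CU from CV. The number of arrays limits precision. The members, role groups, gene lists and tests were chosen with earlier results of these data known. Described with the lowest, median and highest level per diet were, in each role, the 4 probes with the largest change in SBM or SC, all probes called above FM, and the 3 with the largest spread. Alternatives covered scaling, background, dim spots, imputation, slide, scan day, fish number, adjustment and the log2 FC limit. The study listed 40 probes in the pathway, of which 1 is left out and 2 that the rule above names are counted but not reported here.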

Additional observations from a re-analysis of the deposited data

Results flagged for a closer look

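Within diets, 7 of 138 sets of values (23 probes in 6 diets) held a fish whose distance to the nearest other fish was large for the range of its diet. Chance gives about 1 set in 20, so the 7 sets are about as many as chance gives. Sets of the same fish are also not independent, and the 7 are listed as a description only. CV fish 7, the CV fish with a histology sum of 7, was lowest for NAGAB (16.09, next 16.99), VPP3 (12.46, next 12.97) and CATH (14.94, next 15.76). CU fish 4, with the highest histology sum of its diet, was lowest for NAGAB (15.999, next 16.83) and NRAM2 (12.04, next 12.79). FM fish 4 was lowest for AP1S3 (6.22, next 7.25), and SBM fish 2 was highest for CATK (12.60, next 12.10). None of these 7 values was imputed.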

How the results depend on the processing

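Counts of the 39 probes called in SBM and SC stayed within 1.5 times of the values given in all alternatives over all arrays, and no named probe's call turned its direction in any alternative. Counts in CV (6 probes) did not hold: the count was 2 with dim spots kept and with normexp background correction, and 3 with the deposited table, with dim spots removed after normalization and with each diet centred on the median of all probes. Of the 58 pathway probes, CV had 8 calls, and 4 with 75th percentile scaling, 3 with dim spots kept, 3 with normexp, 5 with the deposited table, 4 with dim spots removed after normalization and 5 with centring. In CV the split above and below FM of the 39 probes was 6 and 0, against 1 and 3 with 75th percentile scaling. That split was 4 and 7 in KM, against 1 and 12. Normexp left 7 calls in KM, in place of 11.

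The arrays of scan day 1 alone, with fewer fish, gave 19, 18, 2, 2 and 1 calls among the 39 probes in SBM, SC, KM, CU and CV, and 29, 27, 3, 2 and 1 among the 58. Scan day 2 alone gave 16, 5, 2 and 3 in SBM, KM, CU and CV, and 25, 6, 2 and 4 among the 58. The common histology slope, with 0 probes called, gave 1 with the deposited table, 2 with dim spots removed after normalization, 6 with the lamina propria score, 1 without the SC diet and 13 without the KM diet. The 9 probes with a slope in CU became 0 with the slide as a block, 0 with the lamina propria score, and 0 to 10 when a CU fish was left out. Why these counts moved was not tested, apart from the smaller number of fish per scan day. The shares of all probes called under these alternatives are not given, so the counts are a description.

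Deviations from diet means of same-numbered fish of different diets correlated with a median of 0.05 (−0.38 to 0.47 over 135 pairs), against −0.0055 for fish of other numbers and 0.094 for arrays of the same slide, and 19 of 57 arrays correlated best with their own number. The labels do not say that a number marks anything shared, and the fish were not taken as paired. With the fish number as a replicate block, 31 probes were called in SBM, 34 in SC, 10 in KM, 8 in CU and 6 in CV, and 17 had a slope in CU. The shares of all probes with this block are not given, and nothing is read from these counts. Signal over background sets a limit here through probes that were dim on many arrays and so not tested. Tested probes of low level, such as CATL and LYAG, share this limit.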
